A study of Mus musculus with 18 samples.

Results

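The response of macrophages to interleukin-4 (IL-4) was followed after treatment with an inhibitor of choline uptake. Bone marrow-derived macrophages (BMDM) from 12-week-old female C57BL/6J mice, grown for 7 days with medium conditioned by L929 cells, received 250 µM hemicholinium-3 (HC3), an inhibitor of choline uptake, for 24 h. They were then left naïve (M[0]) or given IL-4 at 20 ng/mL for a further 24 h (M[IL-4]). The paper describes the inhibitor as a pretreatment before polarization, and RNA does not show whether uptake stayed blocked during IL-4. Below, "under HC3" means in cells that received this treatment. The comparison is HC3 M[IL-4] with HC3 M[0], 3 libraries against 3, so that the HC3 treatment is shared by both sides. It was made over every gene that reached 10 counts in 2 or more of the study's 18 libraries, which left 14979 of 55385 genes. These 6 libraries are set beside the IL-4 response of cells given vehicle (Veh, 0.1% DMSO) and, in a single paragraph, of cells given 5 µM RSM-932a (RSM), an inhibitor of choline kinase. The labels name 3 individual mice as the source and do not say which library came from which mouse, nor whether the HC3 cells also received DMSO.

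IL-4 binds its receptor on macrophages and activates the Janus kinases, which phosphorylate the transcription factor STAT6. STAT6 dimers enter the nucleus and induce the genes of alternative activation, among them arginase, chitinase-like proteins, the resistin-like molecule RELMα, C-type lectins and T cell-attracting chemokines. Such macrophages are known for their roles in helminth infection, allergy and tissue repair. Choline is taken up by dedicated transporters and is used mainly to make phosphatidylcholine, the most abundant phospholipid of mammalian membranes.

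Total counts were 18245994 to 19285482 in HC3 M[0] and 17624254 to 18621637 in HC3 M[IL-4], and mitochondrial transcripts took 2.51% to 3.45% and 2.50% to 3.31% of them. All 16 macrophage identity genes passed the count filter, against 1 of 9 B cell, 2 of 9 T cell and 3 of 12 neutrophil markers. The identity genes summed to 11395.0 to 12449.9 CPM (counts scaled to a library total of 1000000, with edgeR's TMM factors) in HC3 M[0] and to 10266.6 to 11488.1 CPM in HC3 M[IL-4]. Of 11 stromal cell markers, 9 passed. They summed to 2573.3, 2026.6 and 2656.8 CPM in HC3 M[0] and to 1412.3, 866.6 and 1613.3 CPM in HC3 M[IL-4], so the groups did not overlap. In bulk RNA, fewer cells of a type and less RNA per cell cannot be told apart.

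The promoters of 6 genes described below are shown, 4 with a STAT6-type motif and 2 with a shorter form of it. They were picked as genes that hold a motif and that rose with IL-4 under HC3 or, for *Edn1*, responded less than with vehicle. They do not stand for the other responding genes, many of which hold neither form. The windows run 5′ to 3′ on the gene's strand from 250 bases before to 50 bases after the start of transcription (RefSeq, GRCm38.p6), and capitals mark the motif. The STAT6-type motif is TTCNNNNGAA, which reads the same on both strands and is the spacing that STAT6 prefers. The shorter form is TTCNNNGAA, also its own reverse complement, which STAT proteins share. *Retnla* (chr16:48842359-48842658, plus strand) and *Pdcd1lg2* (chr19:29410669-29410968, plus strand) encode RELMα and PD-L2. *Itgax* (chr7:128129300-128129599, plus strand) encodes the integrin CD11c, and *Edn1* (chr13:42301226-42301525, plus strand) encodes endothelin-1.
Retnla: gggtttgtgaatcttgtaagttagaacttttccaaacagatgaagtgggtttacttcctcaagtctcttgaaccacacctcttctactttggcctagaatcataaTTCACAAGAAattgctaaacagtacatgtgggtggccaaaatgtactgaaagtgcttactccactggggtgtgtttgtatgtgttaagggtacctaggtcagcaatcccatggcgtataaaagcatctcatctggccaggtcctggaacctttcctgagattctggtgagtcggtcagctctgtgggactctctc
Pdcd1lg2: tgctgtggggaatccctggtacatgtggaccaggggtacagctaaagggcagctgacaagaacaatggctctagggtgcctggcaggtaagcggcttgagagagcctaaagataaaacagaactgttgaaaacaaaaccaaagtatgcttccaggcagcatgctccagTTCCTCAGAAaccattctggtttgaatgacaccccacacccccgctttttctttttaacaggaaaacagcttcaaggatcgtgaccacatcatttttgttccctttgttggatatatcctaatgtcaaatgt
Itgax: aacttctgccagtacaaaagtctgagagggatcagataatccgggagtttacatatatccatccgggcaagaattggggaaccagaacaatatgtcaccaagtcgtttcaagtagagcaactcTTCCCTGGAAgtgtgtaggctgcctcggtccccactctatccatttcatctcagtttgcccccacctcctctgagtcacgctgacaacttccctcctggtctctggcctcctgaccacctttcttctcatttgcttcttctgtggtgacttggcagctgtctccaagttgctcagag
Edn1: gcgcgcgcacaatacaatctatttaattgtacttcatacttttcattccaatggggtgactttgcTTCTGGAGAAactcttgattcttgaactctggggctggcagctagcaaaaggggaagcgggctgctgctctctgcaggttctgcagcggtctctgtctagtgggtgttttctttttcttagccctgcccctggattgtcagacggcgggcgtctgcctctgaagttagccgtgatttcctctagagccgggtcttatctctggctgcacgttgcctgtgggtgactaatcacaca
*Chil3* (chr3:106167515-106167814, minus strand), which encodes the chitinase-like protein Ym1, and *Serpina3g* (chr12:104235897-104236196, plus strand), which encodes a serine protease inhibitor, hold the shorter form.
Chil3: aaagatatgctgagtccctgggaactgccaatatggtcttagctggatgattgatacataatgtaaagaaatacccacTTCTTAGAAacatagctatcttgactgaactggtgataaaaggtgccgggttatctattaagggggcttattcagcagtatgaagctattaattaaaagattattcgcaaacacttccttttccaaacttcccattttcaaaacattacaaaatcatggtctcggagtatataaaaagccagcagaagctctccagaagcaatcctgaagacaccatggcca
Serpina3g: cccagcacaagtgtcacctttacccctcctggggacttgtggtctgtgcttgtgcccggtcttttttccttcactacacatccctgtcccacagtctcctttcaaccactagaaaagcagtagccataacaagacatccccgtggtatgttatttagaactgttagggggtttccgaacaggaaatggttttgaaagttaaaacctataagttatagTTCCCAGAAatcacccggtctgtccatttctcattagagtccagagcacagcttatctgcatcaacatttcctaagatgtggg
In these windows the motif began 145 bases before the start of *Retnla*, 82 before *Pdcd1lg2*, 127 before *Itgax*, 185 before *Edn1*, 172 before *Chil3* and 33 before *Serpina3g*.

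A RefSeq window was matched to 10547 of the 14979 genes. TTCNNNNGAA stood in the windows of 25 of 199 genes raised by IL-4 under HC3 (12.6%), of 17 of 226 lowered genes (7.52%) and of 710 of all 10547 (6.73%). The shorter form stood in 12.1% of the raised genes, 7.08% of the lowered genes and 8.22% of all. For genes raised with Veh the shares were 10.6% and 8.48%. Of the genes on a list of alternative activation that rose under HC3, 22 had a window. TTCNNNNGAA stood in 4 of these and the shorter form in 4. The windows of *Mgl2*, *Mrc1* and *Irf4*, raised genes described below, held neither. Over all 32851 windows of this length in the RefSeq table they were 6.95% and 8.30%. A match is a description of these letters and was not tested as a binding site.

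Under HC3, IL-4 raised 273 genes (1.82% of those tested) and lowered 321 (2.14%). Calls rest on edgeR's quasi-likelihood test, with a Benjamini-Hochberg adjusted p (FDR) under 0.05 together with a log2 fold change of 1 or more in size. With Veh, 424 genes were raised (2.83%) and 573 lowered (3.83%). Of the 273 genes raised under HC3, 198 were also called with Veh, which is 72.5% of the former and 46.7% of the latter. Of the 321 lowered genes, 163 were shared, 50.8% and 28.4%. The median log2 fold change over all genes was -0.01 under HC3. Without replicate 3 on either side, 208 genes were raised and 138 lowered, and without replicate 1 the lowered genes numbered 173.

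The hallmark genes of alternative activation rose under HC3, most of them from levels near 0. Of 46 genes on a list of alternative activation, 42 passed the count filter, 30 rose and 0 fell, with a median log2 fold change of 3.13. The counts with Veh were 33 and 1, with a median of 2.85. *Chil3* was at 0, 0 and 0.105 CPM in the HC3 M[0] libraries and at 399.1, 744.3 and 494.4 CPM in HC3 M[IL-4]. Its 2 counts in M[0] against 29532 in M[IL-4] give a ratio of 15600, with an exact 95% counting interval from 4330 to 129000. All libraries of the IL-4 group were thus far above those of the naïve group, and in M[IL-4] the HC3 level did not pass the test against Veh (419.9 ± 119.0 CPM, SD, n = 3, edgeR FDR = 0.210).

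*Retnla* had no counts in any HC3 M[0] library and reached 32.2, 42.2 and 33.5 CPM with IL-4. Against a floor of 3 counts over the group, this was an at least 663.6-fold higher level, whereas with Veh, also from 0 counts, *Retnla* reached 1273.5 ± 412.7 CPM, at least 21789.5-fold higher. HC3 M[IL-4] was below Veh M[IL-4] by a log2 fold change of -5.15 (edgeR FDR = 6.13e-09). *Rnase2a*, a ribonuclease of the eosinophil-associated family, had 0 counts in HC3 M[0] and stood at 16, 22.0 and 18 CPM in HC3 M[IL-4], at least 344.3-fold higher. It was at 64.9 ± 15.2 CPM in Veh M[IL-4]. *Chil4*, a chitinase-like relative of *Chil3*, went from 0 counts to 0.962, 1.11 and 1.37 CPM, at least 21.2-fold higher. A difference between the responses could not be estimated for these 3 genes, which had no counts in either M[0] group.

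*Arg1*, which encodes arginase-1, was at 0.107, 0 and 0.105 CPM in HC3 M[0] and at 39.9, 51.8 and 59.1 CPM in HC3 M[IL-4] (log2 fold change 9.36 ± 0.37, SE, edgeR FDR = 2.61e-12). Here and below, the SE of a log2 fold change or interaction is its size divided by the square root of the test's F statistic. It was worked back from the test and does not measure the precision of a fold that rests on few counts, as here. In Veh M[IL-4] it was at 181.4 ± 27.2 CPM, and the HC3 level was lower by a log2 fold change of -1.85 (FDR = 1.69e-08). The difference between the 2 responses was -1.01 ± 1.53 (FDR = 0.80), an estimate that rests on 4 and 7 counts in the naïve groups. *Pdcd1lg2*, the T cell checkpoint ligand PD-L2, had 1 count in HC3 M[0] and stood at 16.8, 22.5 and 17.1 CPM in HC3 M[IL-4], a ratio of 1080 (exact 95% counting interval 193 to 42500). Its level in Veh M[IL-4] was 19.6 ± 3.52 CPM, and the HC3 and Veh levels there did not differ beyond their spread (log2 difference -0.06, FDR = 0.83). Of 16 tested genes of T cell costimulation and checkpoints, *Pdcd1lg2* rose and *Icosl*, the ligand of the costimulatory receptor ICOS, fell, from 6.58, 6.86 and 8.05 CPM to 2.77, 2.16 and 1.42 CPM.

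**Figure D1:**
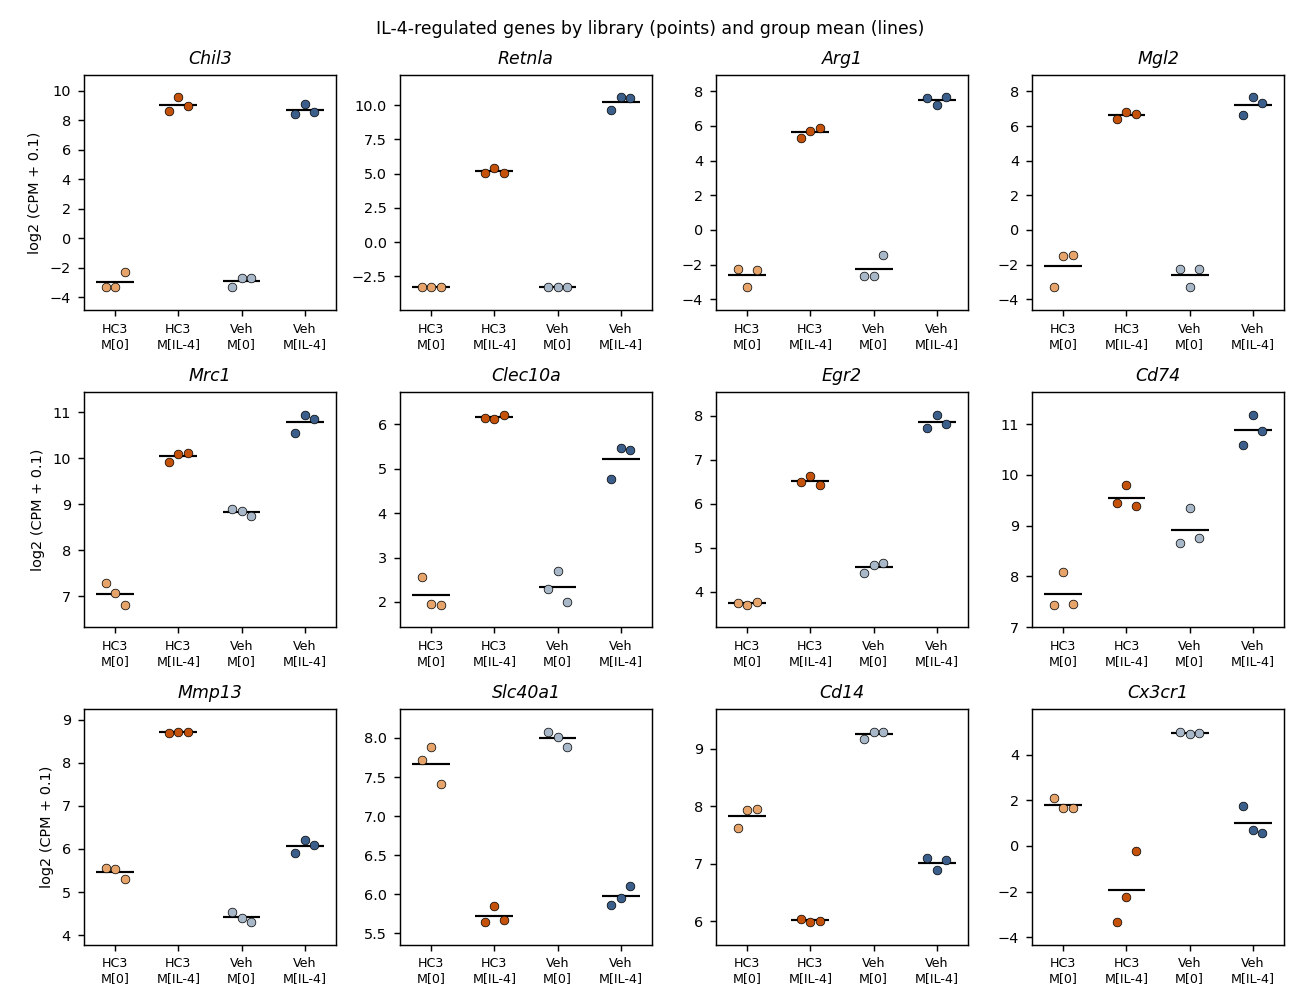
Levels of 12 genes in each library on a log2 (CPM + 0.1) scale for HC3 M[0], HC3 M[IL-4], Veh M[0] and Veh M[IL-4], where points are libraries and lines are the means of the plotted log values (n = 3). For the 9 genes from *Chil3* to *Mmp13* every HC3 M[IL-4] library lies above every HC3 M[0] library, and for *Slc40a1*, *Cd14* and *Cx3cr1* every one lies below.

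The C-type lectins that mark alternative activation rose strongly. *Mgl2* (CD301b), a galactose-type lectin, was at 0, 0.256 and 0.263 CPM in HC3 M[0] and at 84.5, 110.7 and 101.5 CPM in HC3 M[IL-4] (log2 fold change 9.09 ± 0.36, FDR = 3.00e-12). Its neighbour *Clec10a* (CD301a) rose from 5.78, 3.79 and 3.74 CPM to 70.5, 69.6 and 74.4 CPM, and 240 bp of the transcripts of the pair are at least 98% identical, so reads there may be split between them. The mannose receptor *Mrc1* (CD206) was at 155.3, 135.2 and 112.8 CPM in HC3 M[0] and at 968.2, 1089.1 and 1115.1 CPM in HC3 M[IL-4]. Its naïve level was lower than in Veh M[0] (456.8 ± 21.7 CPM), and the rise was larger under HC3 (log2 fold change 2.98) than with Veh (1.97), by 1.01 ± 0.17 (interaction FDR = 9.42e-04). For *Clec10a* the responses were 4.01 and 2.91, a difference of 1.10 ± 0.28 (FDR = 0.0212). Both interactions lost their call without replicate 3 on both sides (FDR = 0.0662 and 0.168), and *Clec10a* also without replicate 2 (FDR = 0.0924).

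Of 29 tested lectins and scavenger receptors, 6 rose and 2 fell under HC3. *Clec7a* (Dectin-1), a receptor for β-glucans, went from 119.8, 144.7 and 87.7 CPM to 399.9, 652.1 and 419.8 CPM. *Clec4n* (Dectin-2) and *Clec4e* (Mincle), pattern receptors that signal through the Fc receptor γ-chain, fell by 1.89 and 1.06 on the log2 scale. *Clec4e* was at 53.6 ± 18 CPM in HC3 M[IL-4] against 5.01 ± 1.35 CPM in Veh M[IL-4], and its fall under HC3 was smaller than with Veh (interaction 1.36 ± 0.33, FDR = 0.0194). Its fall lost the call without replicate 1 (log2 fold change -0.93) and without replicate 3 (FDR = 0.0733), and the interaction also lost its call without either (FDR = 0.0540 and 0.256).

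Of the IL-4 signal itself, feedback inhibitors and a decoy receptor rose. Of 27 tested genes of the IL-4 receptor and JAK-STAT6 list, 3 rose and 0 fell. *Il4ra*, the receptor's ligand-binding chain, was at 114.8, 116.2 and 122.4 CPM in HC3 M[0] and at 95.4, 98.1 and 100.3 CPM in HC3 M[IL-4], and *Stat6* was at 264.0 ± 3.93 and 262.5 ± 4.69 CPM. *Socs1*, which blocks Janus kinases, rose from 2.41, 1.95 and 1.53 CPM to 28.0, 17.7 and 25.4 CPM (log2 fold change 3.59, against 3.94 with Veh). *Cish*, another member of the suppressor of cytokine signalling family, rose from 0.589, 0.563 and 0.631 CPM to 6.00, 5.42 and 6.41 CPM, less than with Veh (log2 fold change 3.31 against 4.97, interaction -1.66 ± 0.38, FDR = 0.0119), a difference whose call was lost without replicate 1 (FDR = 0.0915) and without replicate 3 (FDR = 0.262). *Il13ra2*, the decoy receptor for IL-13, rose from 0, 0 and 0.210 CPM to 3.74, 3.04 and 4.82 CPM.

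*Socs2* showed a response to IL-4 with Veh and none that passed under HC3. It was at 8.03, 5.84 and 6.73 CPM in HC3 M[0] and at 6.06, 6.86 and 5.80 CPM in HC3 M[IL-4] (log2 fold change -0.14, FDR = 0.736). With Veh it rose from 4.08 ± 1.11 to 15.6 ± 3.49 CPM, and the interaction was -2.06 ± 0.29 (FDR = 2.48e-04).

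Among 42 transcription regulators of alternative activation, 7 rose and 2 fell. *Egr2*, an early growth response factor that IL-4 induces, was at 13.2, 12.9 and 13.4 CPM in HC3 M[0] and at 89.6, 99.2 and 86.2 CPM in HC3 M[IL-4] (log2 fold change 2.80 ± 0.10, FDR = 8.14e-13). *Irf4* rose from 1.07, 1.49 and 1.05 CPM to 12.5, 17.3 and 14.5 CPM, and *Batf3*, its partner at AP-1 composite sites, from 0.735 ± 0.282 to 6.50 ± 1.71 CPM. In M[IL-4] both were called below the Veh level, which was 71.6 ± 10.5 CPM for *Irf4* and 23.6 ± 3.96 CPM for *Batf3*. The lipid-sensing receptor *Pparg* rose from 52.2 ± 5.33 to 110.8 ± 9.35 CPM (log2 fold change 1.09, and 0.98 without replicate 2), and *Mitf*, a regulator of lysosomal genes, from 67.0 ± 4.51 to 143.1 ± 13.5 CPM. *Nr4a1* and *Egr3*, immediate early factors, fell by 1.81 and 1.59 on the log2 scale.

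In 5 of the 42 regulators the response to IL-4 was called more negative under HC3 than with Veh, and *Klf4*, *Nfil3* and *Bhlhe40* among them were called higher with HC3 in M[0]. *Klf4*, a Krüppel-like factor that cooperates with STAT6, was at 83.0, 78.8 and 92.2 CPM in HC3 M[0] and at 164.0, 145.1 and 165.4 CPM in HC3 M[IL-4]. This log2 fold change of 0.90 passed the FDR but not the fold threshold, and with Veh *Klf4* rose from 11.8 ± 1.31 to 75.5 ± 1.02 CPM (interaction -1.78 ± 0.12, FDR = 2.61e-07). *Nfil3* rose from 26.9, 24.8 and 25.0 CPM to 61.9, 61.5 and 60.9 CPM under HC3 and from 10.9 to 76.5 CPM with Veh (interaction -1.55 ± 0.11, FDR = 2.61e-07). *Bhlhe40* rose from 47.0 ± 8.25 to 117.6 ± 17.4 CPM under HC3 (interaction -1.45 ± 0.21, FDR = 2.86e-04). *Myc* was at 40.6 ± 5.20 and 57.5 ± 9.60 CPM, and its interaction of -1.02 lost the call without replicate 1 (-0.91) and without replicate 3 (FDR = 0.168).

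Genes that handle arginine rose with *Arg1*. Of 24 tested genes of arginine and polyamine metabolism, 3 rose and 0 fell. *Slc7a2*, a transporter of cationic amino acids, was at 12.9, 10.2 and 9.47 CPM in HC3 M[0] and at 177.2, 221.7 and 203.8 CPM in HC3 M[IL-4] (log2 fold change 4.21 ± 0.16, FDR = 2.55e-12). *Gatm*, which makes the creatine precursor guanidinoacetate, rose from 19.6, 20.4 and 20.7 CPM to 142.2, 151.2 and 143.5 CPM. The responses with Veh were 4.38 and 2.59, and neither interaction passed the test (-0.18 ± 0.22 and 0.26 ± 0.09).

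MHC class II genes rose together from naïve levels that were below those with Veh. Of 10 tested genes of class II presentation, 6 rose and 0 fell under HC3 (median log2 fold change 1.72), and 7 rose with Veh (median 1.40). *Ciita*, the transactivator of these genes, was at 1.66, 2.15 and 1.32 CPM in HC3 M[0] and at 6.85, 11.3 and 6.84 CPM in HC3 M[IL-4]. The invariant chain *Cd74* was at 173.8, 272.6 and 174.2 CPM and at 693.3, 888.8 and 666.8 CPM, and *H2-Ab1*, the β-chain of I-A, at 29.0, 46.1 and 30.5 CPM and at 114.4, 141.2 and 110.2 CPM. The second library was the highest of each group for these genes, and the groups did not overlap. *Cd74* reached 1912.4 ± 399.6 CPM in Veh M[IL-4], and its log2 fold change was 1.86 under HC3 and 1.95 with Veh (interaction -0.09 ± 0.27, FDR = 0.91). No gene of the list had a called interaction. Dendritic cells also express these genes. Of 10 dendritic cell markers, 4 passed the count filter, and *H2-Ab1*, *Itgax* and *Batf3* among them rose under HC3. The markers summed to 87.6, 97.6 and 76.3 CPM in HC3 M[0] and to 599.9, 702.6 and 567.4 CPM in HC3 M[IL-4], groups that did not overlap. *Zbtb46*, a factor of conventional dendritic cells, was at 0.963, 0.102 and 1.37 CPM and at 1.36, 1.49 and 1.31 CPM (FDR = 0.419), and *Flt3*, *Xcr1*, *Clec9a*, *Siglech*, *Ccr7* and *Cd209a* did not reach the count filter. The part of such cells in the class II rise was not tested.

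Genes of macrophage fusion, the process that forms multinucleated giant cells, were raised in 6 of 25 tested members, and 1 fell. *Ocstamp* and *Dcstamp*, transmembrane proteins needed for fusion, rose from 0.321, 0.102 and 0.105 CPM to 10.9, 12.7 and 12.3 CPM and from 3.59, 3.69 and 2.79 CPM to 8.32, 16 and 10.8 CPM. Both were called below the Veh M[IL-4] level, which was 53.6 ± 10.8 CPM for *Ocstamp* (log2 difference -2.17, FDR = 6.38e-09) and 78.6 ± 34.1 CPM for *Dcstamp* (-2.74, FDR = 2.04e-07). *Cdh1* (E-cadherin) had 3 counts in HC3 M[0] and rose to 3.06, 4.10 and 3.18 CPM, a ratio of 65.7 (exact 95% counting interval 22.1 to 321). *Itgax* (CD11c) rose from 57.0, 50.9 and 43.5 CPM to 475.7, 554.8 and 450.1 CPM, and *Atp6v0d2*, a subunit of the vacuolar proton pump, from 229.7 ± 45.2 to 801.3 ± 148.1 CPM. *Itgb3* (integrin β3) rose from 36.1, 58.7 and 35.4 CPM to 75.3, 109.5 and 77.9 CPM, a log2 fold change of 1.01 that fell short of the threshold at 0.96 with scaling by library size only, at 0.98 without replicate 3 and at 0.997 without replicate 1. *Tlr2* was the member that fell, from 36.1, 45.6 and 36.7 CPM to 11.6, 18 and 13.4 CPM.

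Chemokines moved in both directions, with 5 of 32 tested ligands and receptors raised and 6 lowered. *Ccl2* and *Ccl7*, which recruit monocytes through CCR2, rose from 9.74, 9.63 and 8.84 CPM to 45.1, 33.2 and 44.3 CPM and from 19.4, 17.0 and 16.3 CPM to 95.2, 86.4 and 115.2 CPM. *Ccl22*, a ligand of CCR4 on type 2 helper T cells, went from 0.107, 0.154 and 0 CPM to 1.02, 2.82 and 2.96 CPM. *Ccl17*, the other ligand of CCR4, had 1 count in HC3 M[0] and 21 in HC3 M[IL-4], and its call was lost without replicate 2 (FDR = 0.164) and without replicate 3 (FDR = 0.167). *Ccl3* and *Ccl4*, inflammatory chemokines, fell from 36.1, 29.0 and 29.7 CPM to 14.2, 14.9 and 12.3 CPM and from 12.5, 9.12 and 7.89 CPM to 5.09, 3.93 and 3.67 CPM.

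*Cx3cr1*, the fractalkine receptor of monocytes and resident macrophages, showed the largest fall by the rule for named genes. It was at 4.17, 3.02 and 3.10 CPM in HC3 M[0] and at 0, 0.111 and 0.767 CPM in HC3 M[IL-4] (log2 fold change -3.51 ± 0.56, FDR = 1.97e-04). In Veh M[0] it stood at 30.8 ± 1.13 CPM and fell to 2.06 ± 1.06 CPM, a log2 fold change of -3.88. The chemokine receptor *Cxcr3* fell from 2.73, 4.25 and 3.58 CPM to 1.13, 0.996 and 0.712 CPM.

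Of 19 tested cytokine genes, 2 rose and 1 fell. *Il6* was at 0.696, 1.79 and 1.05 CPM in HC3 M[0] and at 4.98, 6.75 and 4.60 CPM in HC3 M[IL-4] (log2 fold change 2.19 ± 0.35, FDR = 2.04e-04). With Veh it was at 0.167 ± 0.107 and 0.0746 ± 0.0647 CPM, and the interaction of 3.29 ± 1.00 did not pass (FDR = 0.0578). *Il1rn*, the IL-1 receptor antagonist, fell from 41.4, 25.6 and 27.8 CPM to 13.9, 10.1 and 13.6 CPM. *Tnfsf10* (TRAIL) rose from 5 to 22 counts over the group, and lost its call in a fit of the compared groups alone (FDR = 0.101) and without replicate 1 or 3 (FDR = 0.185 and 0.329).

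Eicosanoid genes rose in 4 of 23 tested members. *Ptgs1*, the constitutive cyclooxygenase COX-1, was at 18.7, 18.5 and 19.2 CPM in HC3 M[0] and at 75.8, 81.9 and 87.1 CPM in HC3 M[IL-4]. *Tbxas1*, thromboxane synthase, rose from 80.6, 90.3 and 84.3 CPM to 186.3, 204.6 and 190.7 CPM. The leukotriene receptors *Ltb4r1* (1 count, then 1.15 ± 0.43 CPM) and *Cysltr2* (0.985 ± 0.789, then 4.68 ± 0.77 CPM) rose as well, *Cysltr2* losing its call without replicate 3 (FDR = 0.0855). The prostacyclin receptor *Ptgir* was at 98.5, 107.5 and 100.2 CPM and at 147.1, 163.3 and 165.9 CPM, whereas with Veh it rose from 5.71 ± 1.11 to 22.4 ± 2.05 CPM (interaction -1.34 ± 0.15, FDR = 3.66e-05). The prostaglandin E receptor *Ptger4* was at 16.8 ± 0.79 and 16.6 ± 0.28 CPM under HC3 and fell with Veh (interaction 1.14 ± 0.13, FDR = 2.90e-05), and 16.5% of its exons overlap a gene on the other strand.

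Of 18 tested genes of coagulation and selectin ligands, 2 rose and 3 fell, and 6 had a called, more negative response under HC3. Factor VII (*F7*) rose from 3.85, 3.23 and 3.21 CPM to 14.7, 12.5 and 13.5 CPM, and factor X (*F10*) from 3.85, 3.64 and 2.05 CPM to 25.0, 26.1 and 21.2 CPM. Both rose more with Veh, to 22.1 ± 2.69 and 60.4 ± 11.0 CPM (interactions -1.10 ± 0.26 and -1.10 ± 0.30). *F3*, tissue factor, which starts coagulation together with factor VII, fell from 3.32, 5.58 and 4.10 CPM to 1.19, 1.27 and 1.59 CPM. With Veh it was at 0.765 ± 0.280 and 0.920 ± 0.312 CPM, and the interaction was -1.94 ± 0.45 (FDR = 0.0139). These 3 interactions lost their calls without replicate 3 on all sides (FDR = 0.275, 0.167 and 0.167). Without replicate 1 the *F7* interaction was -0.90, under the fold threshold, and those of *F10* and *F3* had an FDR of 0.0908 and 0.0636. Without replicate 2 these 2 had an FDR of 0.140 and 0.152.

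*Cd14*, the co-receptor for lipopolysaccharide, went from 197.5, 243.6 and 246.7 CPM to 66.1, 63.6 and 64.5 CPM (log2 fold change -1.83 ± 0.09, FDR = 4.21e-11) and was the 1 of 16 macrophage identity genes that was called. *Slc40a1* (ferroportin), the iron exporter, fell from 209.9, 235.6 and 170.6 CPM to 50, 57.4 and 50.9 CPM, a log2 fold change of -1.96 under HC3 and -2.02 with Veh (interaction 0.06 ± 0.15, FDR = 0.89). *Lcn2* (lipocalin-2), which binds iron-carrying siderophores, fell from 2.13 ± 0.26 to 0.502 ± 0.156 CPM. *Tfrc*, the transferrin receptor, rose from 147.8, 106.3 and 116.7 CPM to 265.9, 247.5 and 286.2 CPM. Its rise was smaller than with Veh, where it reached 522.0 ± 41.1 CPM (interaction -1.22 ± 0.19, FDR = 7.02e-04, and 0.0729 without replicate 3).

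Called genes of the extracellular matrix and of stromal cells were mainly lower with IL-4 under HC3. Of 45 tested genes of matrix and proteases, 2 rose and 7 fell (median log2 fold change -0.46, and -0.46 with Veh), and of 9 stromal markers 1 rose and 3 fell (median -0.80). The stromal markers *Acta2* (smooth muscle actin), *Pdgfrb* and *Col3a1* went from 800.9 ± 138.5 to 348.5 ± 107.6 CPM, from 49.7 ± 13.7 to 20.2 ± 6.57 CPM and from 115.4 ± 21.1 to 50.9 ± 15.7 CPM. *Col4a1*, a basement membrane collagen, fell from 223.2, 140.0 and 216.1 CPM to 105.2, 50.4 and 111.8 CPM. The second library was the lowest of its group for each of these 4 genes in both groups, as for the summed stromal markers, and the part of the stromal signal in these falls was not tested.

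Several of these calls depended on which replicate numbers were in the fit, where a number was left out of every group. *Acta2*, *Pdgfrb*, *Col3a1* and *Col4a1* were no longer called without replicate 1 (FDR = 0.135, 0.0749, 0.109 and 0.161) or without replicate 3 (FDR = 0.0977, 0.228, 0.168 and 0.219), and *Col4a1* also not with DESeq2 (FDR = 0.0534). With HC3 M[IL-4] replicate 2 left out, 193 genes in all were lowered.

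Of the matrix and protease genes, 2 proteases rose, and which cells their reads came from was not tested. *Mmp13* (collagenase-3) was at 46.7, 46 and 39.5 CPM in HC3 M[0] and at 409.9, 416.8 and 420.8 CPM in HC3 M[IL-4] (log2 fold change 3.24 ± 0.08, FDR = 4.89e-15). With Veh it rose from 21.2 ± 1.78 to 67.1 ± 7.29 CPM, so the response was larger under HC3 by 1.58 ± 0.12 (FDR = 2.61e-07). *Mmp12* (macrophage elastase) rose from 731.0, 791.1 and 567.4 CPM to 1545.9, 2004.8 and 1475.4 CPM.

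Among 29 tested growth factors and receptors, 3 rose and 5 fell. *Flt1* (VEGF receptor 1) rose from 1.07, 1.02 and 1.26 CPM to 53.1, 55.6 and 61.9 CPM under HC3 and to 157.6 ± 7.11 CPM with Veh (interaction -1.60 ± 0.30, FDR = 0.00311, and 0.0751 without replicate 3). *Igf1* rose from 592.8, 518.4 and 579.1 CPM to 1208.7, 1437.6 and 1371.0 CPM, and *Vegfc*, a lymphangiogenic factor, from 5.94, 2.92 and 3.10 CPM to 16.2, 12.5 and 15.1 CPM. *Kdr* (VEGF receptor 2) fell from 39.2, 48.8 and 35.7 CPM to 11.9, 15.3 and 13.4 CPM, and *Inhba*, a subunit of activin, from 124.4, 98.6 and 109.3 CPM to 37.6, 34.8 and 56.3 CPM. *Tgfb3* fell from 44.4, 36.0 and 46.9 CPM to 16.4, 9.46 and 17.8 CPM. For *Inhba* and *Tgfb3* the second library was the lowest in both groups, as for the summed stromal markers, and for *Kdr* it was the highest. The part of the stromal signal in these falls was not tested. *Tgfb2* and *Ereg* also fell, and both lost their calls without replicate 1 (FDR = 0.174 and 0.0996) and without replicate 3 (FDR = 0.0850 and 0.0593).

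By size, the largest rises beyond those described were of *Kcnd3*, *Cldn11*, *Scn3a*, *Il31ra* and *Gbp11*. *Kcnd3*, a voltage-gated potassium channel, had 0 counts in HC3 M[0] and stood at 5.60, 9.91 and 9.14 CPM in HC3 M[IL-4], at least 152.0-fold higher. *Cldn11*, a claudin of tight junctions, reached 2.55, 4.59 and 2.85 CPM from 0 counts, at least 61.5-fold higher. *Scn3a*, a sodium channel, and *Il31ra*, the IL-31 receptor, were also without counts in HC3 M[0] and reached 3.05 ± 0.49 and 2.87 ± 0.40 CPM, at least 56.4-fold and 52.9-fold higher, and in Veh M[IL-4] they were at 23.5 ± 9.11 and 9.53 ± 3.38 CPM. *Gbp11*, a guanylate-binding protein, had 3 counts in HC3 M[0] and 227 in HC3 M[IL-4], a ratio of 80.2 (exact 95% counting interval 27.1 to 392), against 0 and 1 counts with Veh. With so few Veh counts, its interaction did not pass (edgeR FDR = 0.97).

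The largest falls after *Cx3cr1* were of genes with HC3 M[0] means from 2.6 CPM (*Gzme*) to 33.7 CPM (*Akap12*). *Gzme*, a granzyme, fell from 2.41, 2.10 and 3.37 CPM to 0.226, 0.387 and 0.767 CPM, and *Sox11*, a developmental transcription factor, from 3.48, 3.07 and 2.37 CPM to 0.509, 0.443 and 0.657 CPM. *Adra2a*, an α2-adrenergic receptor, fell from 7.01, 8.65 and 13 CPM to 1.70, 1.38 and 2.14 CPM. *Has2*, a hyaluronan synthase, fell from 11.6, 11.4 and 12.7 CPM to 2.26, 1.72 and 3.29 CPM, and *Akap12*, a scaffold protein, from 40.4, 25.1 and 35.5 CPM to 7.93, 5.26 and 9.42 CPM. *Smoc2*, *Siglecg*, *Galnt18*, *Itga11*, *Ankrd1* and *Csrp2* completed the 12, with log2 fold changes of -2.31, -2.07, -2.02, -2.01, -2.0 and -1.99. All of these genes except *Cx3cr1* and *Gzme* stood above Veh in M[0] by the same call. For *Has2* and *Akap12* the second library was the lowest in both groups, as for the summed stromal markers. For *Gzme*, *Sox11* and *Adra2a* this was not so. The part of the stromal signal in these falls was not tested.

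For genes of cell division and sterol synthesis, few or 0 members were called in either response, and the interaction was called in some. Of 42 tested mitosis genes, 0 were called under HC3 and 0 with Veh. At the FDR alone, 10 were lower under HC3 (median log2 fold change -0.51) and 16 higher with Veh (median 0.44), and the interaction was called in 10, all negative. Of 45 DNA replication genes, 0 were called under HC3 and 2 rose with Veh. At the FDR alone, 2 were higher and 3 lower under HC3 (median -0.12) and 31 higher with Veh (median 0.47), with 5 called interactions, all negative. Over all 14979 genes the interaction was called negative in 0.761%. At the FDR alone, 1081 of all genes were higher and 1120 lower under HC3, and 2417 were higher and 2232 lower with Veh. *Aurkb*, a mitotic kinase, was at 8.51, 7.02 and 9.05 CPM in HC3 M[0] and at 6.40, 5.48 and 7.23 CPM in HC3 M[IL-4], against 13.1 ± 1.09 and 21.9 ± 2.44 CPM with Veh (interaction -1.10 ± 0.23, FDR = 0.00689, 0.0506 without replicate 1 and 0.207 without replicate 3). *Uhrf1*, which maintains DNA methylation after replication, was at 20.1 ± 3.08 and 15.8 ± 1.61 CPM under HC3 and at 32.4 ± 1.17 and 60.1 ± 6.18 CPM with Veh (interaction -1.24 ± 0.23, FDR = 0.00243, and 0.168 without replicate 3).

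Sterol synthesis genes showed a like pattern. Of 25 tested members, 0 were called under HC3 and 0 with Veh. At the FDR alone, 6 were lower under HC3 (median log2 fold change -0.14) and 18 higher with Veh (median 0.52), and 3 interactions were called, all negative. *Cyp51*, the lanosterol demethylase, was at 38.4, 32.9 and 31.1 CPM in HC3 M[0] and at 26.8, 26.1 and 27.4 CPM in HC3 M[IL-4], and with Veh at 41.7 ± 6.19 and 79.1 ± 6.03 CPM (interaction -1.27 ± 0.18, FDR = 2.09e-04).

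Genes of the integrated stress response, the program of the transcription factor ATF4, stood high under HC3 in both groups. Of 47 tested members, 0 were called for IL-4 under HC3, 11 rose and 1 fell with Veh, and 7 interactions were called, all negative. *Trib3*, a pseudokinase target of ATF4, was at 296.6, 319.8 and 329.3 CPM in HC3 M[0] and at 342.2, 305.4 and 315.4 CPM in HC3 M[IL-4], against 3.32 ± 0.72 and 7.06 ± 1.04 CPM with Veh. *Mthfd2*, an enzyme of mitochondrial one-carbon metabolism, was at 169.5 ± 5.33 and 192.6 ± 7.97 CPM under HC3 and rose with Veh from 33.4 ± 3.38 to 82.9 ± 0.88 CPM (interaction -1.12 ± 0.10, FDR = 1.67e-06). *Slc7a11*, the cystine transporter, was at 63.5, 102.0 and 56.1 CPM and at 30.7, 59.0 and 41.0 CPM, where the fall by 0.76 on the log2 scale passed the FDR (0.0215) but not the fold threshold, and with Veh it rose from 4.78 ± 0.97 to 13.8 ± 3.17 CPM. Its interaction of -2.29 ± 0.36 had an FDR of 6.56e-04, and of 0.0597 without replicate 3. The *Trib3* interaction of -1.07 was -0.93 without replicate 1 and had an FDR of 0.0814 without replicate 3.

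Choline and phospholipid synthesis genes had 0 of 36 tested members called under HC3 (median log2 fold change -0.10), with 5 higher and 2 lower at the FDR alone, and 1 and 2 called with Veh. Over all 14979 genes, 1081 were higher and 1120 lower under HC3 at the FDR alone. No interaction was called in this list. Of 12 tested mitochondrial mRNAs, 0 were called, and they summed to 901.9 to 1043.3 CPM in HC3 M[0] and to 736.9 to 825.5 CPM in HC3 M[IL-4], against 16216.8 to 23029.3 CPM over the Veh libraries.

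Interferon-stimulated genes differed in the other direction. Of 53 tested members, 3 rose and 0 fell under HC3 (median log2 fold change 0.12), and 0 rose and 13 fell with Veh (median -0.60), with 4 called interactions, all positive, and 11 with the block within each polarization. *Irf1*, a factor of interferon signalling, rose from 24.7, 24.8 and 22.9 CPM to 60.8, 62.9 and 54.3 CPM, and *Zbp1*, a sensor of nucleic acids, from 1.71, 3.18 and 2.26 CPM to 9.79, 11.3 and 8.38 CPM. *Oas2*, an oligoadenylate synthetase, was at 19.4, 20.3 and 17.2 CPM in HC3 M[0] and at 14.3, 15.5 and 15.6 CPM in HC3 M[IL-4], and fell with Veh from 57.0 ± 4.56 to 16.2 ± 2.42 CPM (interaction 1.49 ± 0.26, FDR = 0.00159). *Gbp9* was at 19.2 ± 0.96 and 26.1 ± 5.10 CPM under HC3 and fell with Veh from 36.4 ± 3.31 to 15.4 ± 3.61 CPM (interaction 1.69 ± 0.27, FDR = 8.04e-04).

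**Figure D2:**
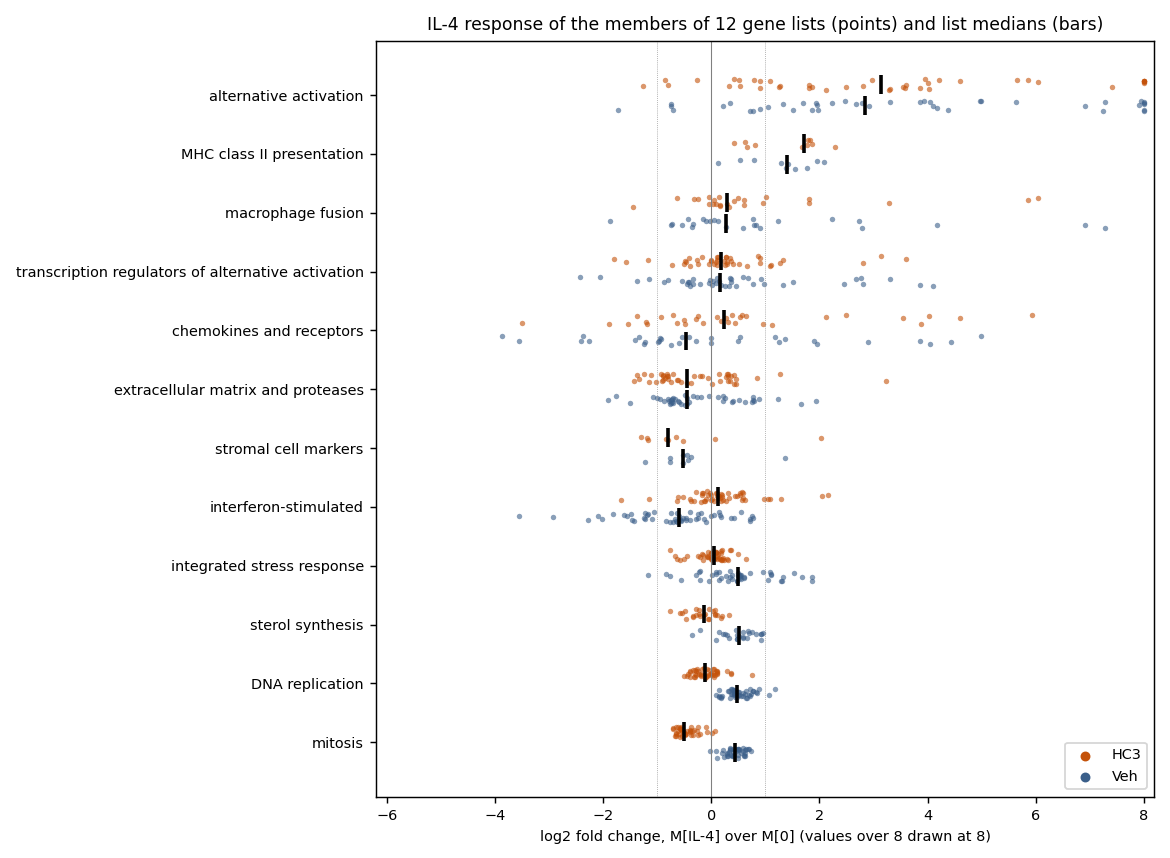
Log2 fold change of M[IL-4] over M[0] for the tested members of 12 gene lists under HC3 and with Veh, where each point is a gene, black bars are list medians, dotted lines mark the fold threshold and values over 8 are drawn at 8. The medians of mitosis, DNA replication and sterol synthesis lie below 0 under HC3 (-0.51, -0.12 and -0.14) and above 0 with Veh (0.44, 0.47 and 0.52).

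The difference between the responses was tested gene by gene as the interaction of HC3 with IL-4. It was positive in 72 genes (0.481%) and negative in 114 (0.761%). With the replicate number as a block within each polarization, which the deviations of HC3 and Veh libraries support, it was positive in 123 and negative in 165. Of the 226 genes called as raised with Veh and not as raised under HC3, 43 had a called smaller response under HC3, and 78 passed the FDR under HC3 in the same direction but not the fold threshold. Of the 410 genes called as lowered with Veh and not as lowered under HC3, 37 had a called smaller fall and 127 passed the FDR in the same direction but not the fold threshold. Of the 75 genes called as raised under HC3 and not with Veh, 14 had a called larger response, as had 8 of the 158 called as lowered under HC3 and not with Veh. Over the 424 genes raised with Veh the median log2 fold change was 1.75 there, by which they were chosen, and 1.13 under HC3. Without replicate 3 on all sides 46 interactions were called, and without replicate 1 there were 112.

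**Figure D3:**
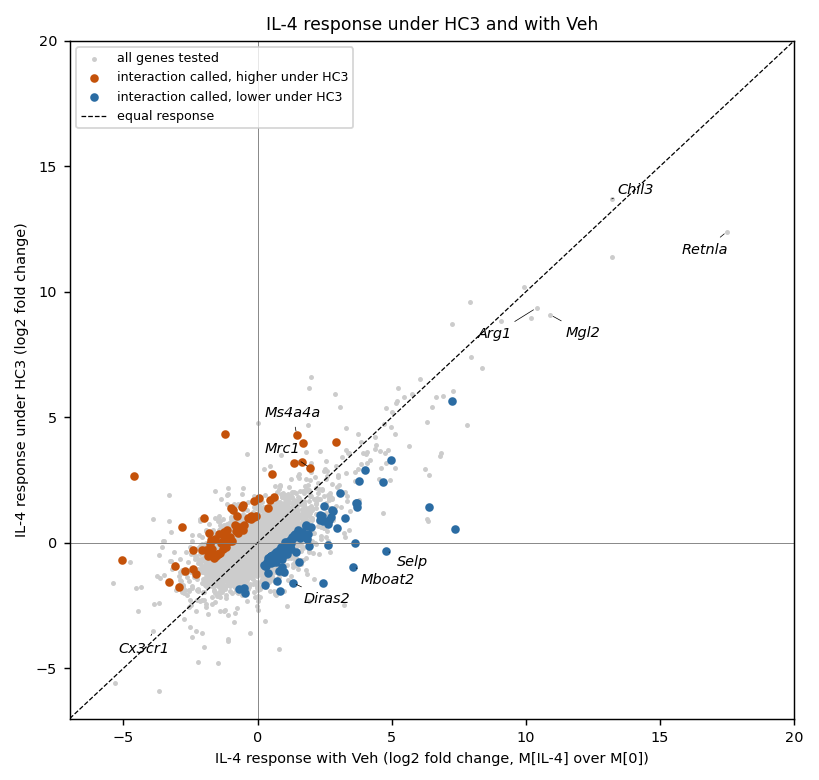
IL-4 response under HC3 (log2 fold change, vertical) against that with Veh (horizontal) for all 14979 genes, with the 72 genes of called positive and the 114 of called negative interaction in colour and the line of equal response dashed. *Chil3* lies near the line at 13.7 and 13.2, whereas *Retnla* lies below it at 12.4 and 17.5, and fitted values of genes with 0 counts in M[0] depend on the prior count.

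Of the 72 genes with positive interactions, 60 were called against Veh in M[0], in M[IL-4] or in both. *Ms4a4a*, a tetraspan membrane protein of macrophages, was at 2.19, 2.77 and 2.0 CPM in HC3 M[0] and rose to 34.1, 56.7 and 48.0 CPM, and with Veh it went from 44.4 ± 8.49 to 121.8 ± 25.3 CPM (interaction 2.86 ± 0.32, FDR = 2.64e-05). *Ch25h*, which makes 25-hydroxycholesterol, was at 1.26 ± 0.15 CPM in HC3 M[0] and 1.19 ± 0.22 CPM in Veh M[0], and rose to 18.8, 19.0 and 21.2 CPM with HC3 and to 3.85 ± 0.82 CPM with Veh (interaction 2.27 ± 0.34, FDR = 4.02e-04), with 11.5% of its exons overlapped on the other strand. *Fcgr1*, the high-affinity IgG receptor, was at 96.0, 94.1 and 96.3 CPM and at 80.3, 84.5 and 78.4 CPM under HC3, and fell with Veh from 181.4 ± 19.0 to 51.4 ± 6.66 CPM (interaction 1.58 ± 0.15, FDR = 7.81e-06). *Cxcl2*, a neutrophil chemokine, was at 11.9 ± 1.44 and 9.77 ± 1.99 CPM under HC3 and fell with Veh from 8.65 ± 1.00 to 1.62 ± 0.60 CPM (interaction 2.12 ± 0.28, FDR = 1.44e-04), and its transcript shares near-identical sequence with *Cxcl3*. Of the 72 genes, 40 were called below Veh in HC3 M[0] and 21 above Veh in HC3 M[IL-4].

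Among negative interactions, *Mboat2*, a lysophospholipid acyltransferase, was at 1.5, 1.49 and 0.789 CPM in HC3 M[0] and at 0.509, 0.553 and 0.876 CPM in HC3 M[IL-4], groups that overlap, and rose with Veh from 0.443 ± 0.131 to 5.30 ± 0.76 CPM (interaction -4.50 ± 0.50, FDR = 2.64e-05). *Selp* (P-selectin) was at 5.73, 6.50 and 5.42 CPM and at 4.13, 5.15 and 4.93 CPM under HC3. With Veh it had 1 count in M[0] and 37 in M[IL-4], so its interaction of -5.09 ± 0.62 rests on a single count in 1 group, and 14.1% of its exons overlap a gene on the other strand. *Il1rl1*, the IL-33 receptor ST2, rose from 5.14, 3.99 and 3.95 CPM to 11.7, 8.80 and 14.9 CPM under HC3 and from 2.44 ± 0.38 to 31.9 ± 6.43 CPM with Veh (interaction -2.27 ± 0.30, FDR = 1.53e-04). *Edn1* was at 7.60, 5.58 and 6.73 CPM and at 14.7, 8.41 and 16.4 CPM under HC3, just under the fold threshold at 0.99, and rose with Veh from 0.849 ± 0.336 to 8.34 ± 1.66 CPM (interaction -2.29 ± 0.44, FDR = 0.00311, 0.0950 without replicate 1 and 0.0597 without replicate 3). Of the 114 genes, 35 were called above Veh in HC3 M[0] and 60 below Veh in HC3 M[IL-4].

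**Figure D4:**
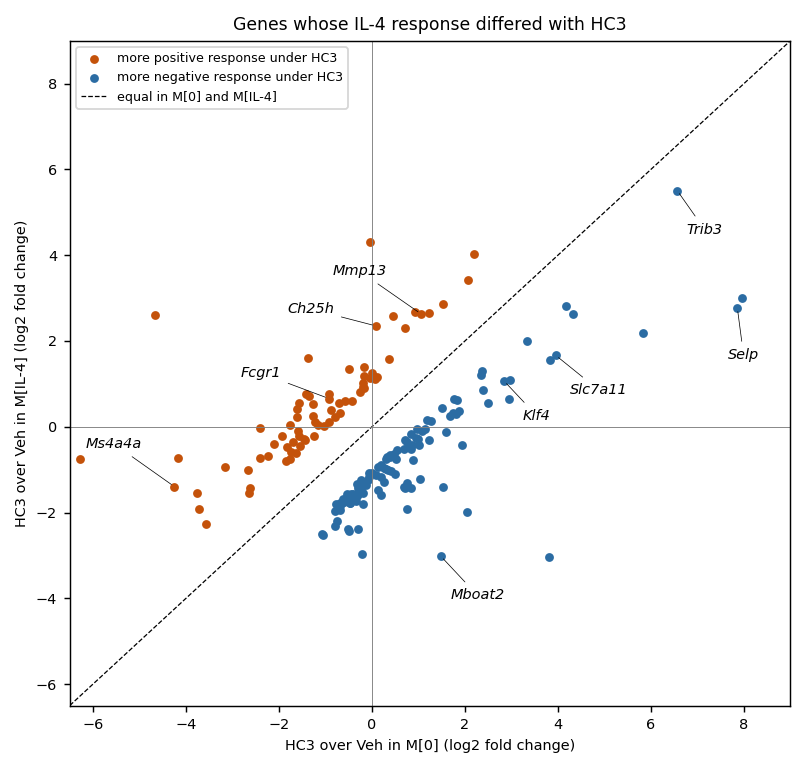
HC3 over Veh in M[IL-4] against HC3 over Veh in M[0] (log2 fold changes) for the 186 genes with a called interaction, where distance from the dashed line is the interaction. *Trib3* and *Selp* lie to the right, high with HC3 in M[0] (6.57 and 7.86), *Ms4a4a* lies to the left (-4.25), and *Ch25h* lies near 0 in M[0] (0.08) and at 2.35 in M[IL-4].

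A single gene was called in opposite directions. *Diras2*, a small GTPase of the Ras family, fell under HC3 from 0.856, 1.28 and 1.26 CPM to 0.226, 0.609 and 0.274 CPM (65 and 20 counts over the groups) and rose with Veh from 0.393 ± 0.074 to 0.995 ± 0.488 CPM (interaction -2.92 ± 0.63, FDR = 0.00829). Its fall lost the call without replicate 1 (FDR = 0.0578) and without replicate 3 (FDR = 0.248), and the interaction without replicate 3 (FDR = 0.333).

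Responses that passed under HC3, did not pass with Veh and had a called interaction were found for 8 raised and 3 lowered genes over the count minimum. *Gpr183* (EBI2), the receptor for oxysterols made through *Ch25h*, rose from 9.52, 9.88 and 9.0 CPM to 29.8, 28.9 and 32.0 CPM, and with Veh it was at 32.3 ± 0.19 and 29.6 ± 0.97 CPM (interaction 1.80 ± 0.16, FDR = 2.71e-06). *Btbd11* rose from 3.26, 3.23 and 3.10 CPM to 11.6, 9.46 and 11.8 CPM, and with Veh it was at 13.8 ± 2.72 and 14.4 ± 1.71 CPM (interaction 1.71 ± 0.22, FDR = 1.04e-04). For both, the HC3 M[0] level was the one that stood apart from the other 3 groups. *Serpina3g* went from 0.375, 0.102 and 0.368 CPM to 2.72, 1.44 and 1.64 CPM, and with Veh it was at 2.54 ± 0.77 and 3.70 ± 1.12 CPM (interaction 2.21 ± 0.59, FDR = 0.0308). *Bcl2a1d*, a BCL2-related survival factor whose reads may be shared with *Bcl2a1a* and *Bcl2a1b*, rose from 3.05, 4.61 and 3.26 CPM to 12.1, 13.9 and 9.36 CPM, and its interaction lost the call without replicate 1 (FDR = 0.300) and without replicate 3 (FDR = 0.188). The *Serpina3g* interaction lost its call without replicate 1, 2 or 3 (FDR = 0.0688, 0.174 and 0.232).

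Under HC3 and under RSM the responses differed in 11 genes (0.0734%), all more negative under HC3. *Itgax* rose by a log2 fold change of 3.29 under HC3 and 5.39 under RSM (difference -2.10 ± 0.23, FDR = 3.80e-04), and *Egr2* by 2.80 and 4.13 (difference -1.33 ± 0.15, FDR = 5.32e-04). *Ccl7* and *Atp6v0d2* followed with differences of -1.62 and -1.53. With 28 genes at the FDR alone and 950 at an unadjusted p under 0.05, the count depended on the libraries, falling to 2 without replicate 1 and to 3 without replicate 3. The call was lost without replicate 1 for *Egr2* (FDR = 0.0765), *Ccl7* (FDR = 0.174) and *Atp6v0d2* (FDR = 0.157), and without replicate 3 for the latter 2 (FDR = 0.605 and 0.244). A difference that misses the threshold does not show that the responses were alike.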

How the data were processed

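RNA of 18 libraries was sequenced after poly-T selection. Reads were trimmed with fastp, aligned to GRCm38 with STAR in local mode and counted on exons with featureCounts, with duplicates kept. The authors deposited raw counts per gene, in read pairs. Tool versions, the annotation release and the strand setting are not given in the sources used here, so reads on exons that overlap a gene of the other strand cannot be told apart.

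Conditions came from the labels. All 18 libraries entered 1 fit in edgeR 4.0.16 (R 4.3.3, TMM, glmQLFit, glmQLFTest) with 1 coefficient for each group, and p-values were adjusted over 14979 genes. Symbols and positions came from GENCODE's annotation of GRCm38 and matched 55144 of 55385 genes. Same-numbered HC3 and Veh libraries deviated together within a polarization (correlations of deviations 0.514 to 0.539 in M[0] and 0.324 to 0.696 in M[IL-4]). The number thus pairs HC3 with Veh, as the data and not the labels show, and the interaction is also given with the number as a block. DESeq2 1.42.0 was an alternative. The steps were tested on simulated data. Near-identical transcripts (98% over 100 bp) were found with blastn 2.17.0, for 18 of 190 genes searched, and figures were drawn with matplotlib 3.10.9.

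Gene lists and members were chosen with earlier results of these data known. Genes are named as called members of 38 lists or as their receptors and factors, as the 12 largest rises and falls under HC3 that kept their direction in each pair of libraries of equal number and averaged at least 50 counts in the higher group, as the 8 largest interactions each way, as opposite calls, and as up to 6 calls each way under HC3 with a called interaction that vehicle lacked. Intervals and floors cover counting error only. For 1 gene, the smallest p that exact permutation of 3 and 3 libraries allows is 0.1.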

Additional observations from a re-analysis of the deposited data

Results flagged for a closer look

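The genes below were singled out because their response to IL-4 under HC3 differed from that with Veh, or from that under RSM, in edgeR's test of the difference itself. Values are differences between log2 fold changes, HC3 minus the other.

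The largest positive differences from Veh, which stand for a larger rise or a smaller fall under HC3, were those of *Ms4a4a* (2.86), *Ch25h* (2.27), *Slco2b1* (2.21), *Serpina3g* (2.21), *Bmp2* (2.17), *Cxcl2* (2.12), *Cd4* (2.12) and *Ctnnd2* (1.84). *Slco2b1*, an organic anion transporter, rose from 1.28 to 3.15 CPM under HC3 and was at 17.5 and 9.27 CPM with Veh, a change that was not called. *Bmp2*, a bone morphogenetic protein, was at 5.74 and 7.42 CPM under HC3 and fell from 15.3 to 4.40 CPM with Veh. *Cd4*, a surface glycoprotein of T cells and some macrophages, was at 1.64 and 0.853 CPM under HC3 and fell from 4.87 to 0.575 CPM with Veh, and its difference lost the call without replicate 1 (FDR = 0.129) or 2 (FDR = 0.141). *Ctnnd2*, a catenin, rose from 1.27 to 11.6 CPM under HC3 and from 3.86 to 9.89 CPM with Veh, and its difference lost the call without replicate 1 (FDR = 0.129) or 3 (FDR = 0.362). That of *Slco2b1* had an FDR of 0.0511 without replicate 1. For *Bmp2* and *Cd4*, 2 different patterns thus gave differences of nearly the same size, a shallow rise in the one and a smaller fall in the other, neither called under HC3.

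The largest negative differences were those of *Selp* (-5.09), *Gm38575* (-4.96), *Mboat2* (-4.50), *Hebp2* (-2.68), *5830415G21Rik* (-2.36), *Slc7a11* (-2.29), *Edn1* (-2.29) and *Il1rl1* (-2.27). *Gm38575* had 0 counts in Veh M[0] and 30 in Veh M[IL-4], so its fitted difference depends on the prior count and is no bound, and that of *Selp* rests on 1 count. The *Gm38575* difference lost its call without replicate 1, 2 or 3 (FDR = 0.0769, 0.0746 and 0.226). *Hebp2*, a heme-binding protein, was at 1.96 and 1.87 CPM under HC3 and rose from 1.15 to 7.07 CPM with Veh. *5830415G21Rik* was at 1.81 and 2.72 CPM under HC3 and rose from 0.467 to 3.64 CPM with Veh, and its difference lost the call without replicate 1 (FDR = 0.0568) or 3 (FDR = 0.166), as did that of *Hebp2* without replicate 3 (FDR = 0.0515).

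*Diras2*, the gene called in opposite directions, differed by -2.92. Among genes whose response passed under HC3 and not with Veh, the differences were 1.84 for *Phyhd1*, 1.80 for *Gpr183*, 1.71 for *Btbd11*, 1.34 for *Gbp7*, 1.23 for *Bcl2a1d*, -1.94 for *F3*, -1.52 for *Csrp2* and -1.28 for *Ptprn*. *Phyhd1*, a dioxygenase, rose from 1.64 to 3.44 CPM under HC3 and was at 0.356 and 0.204 CPM with Veh. *Gbp7*, a guanylate-binding protein, rose from 1.91 to 4.05 CPM under HC3 and was at 5.64 and 4.74 CPM with Veh. *Csrp2*, a LIM-domain protein, fell from 13 to 3.28 CPM under HC3 and was at 3.69 and 2.66 CPM with Veh. *Ptprn*, a receptor-type phosphatase-like protein, fell from 10.7 to 3.09 CPM and was at 6.02 and 4.23 CPM with Veh. The *Phyhd1* difference lost its call with the replicate number as a block across all libraries (FDR = 0.0511), in a fit of the compared groups alone (FDR = 0.0664), with no count filter (FDR = 0.0665) and without replicate 1, 2 or 3 (FDR = 0.148, 0.310 and 0.181). That of *Gbp7* was lost without replicate 1, 2 or 3 (FDR = 0.0716, 0.151 and 0.226), and those of *Csrp2* and *Ptprn* without replicate 1 (FDR = 0.169 and 0.257) or 3 (FDR = 0.0858 and 0.226).

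Against RSM, the 11 genes were *Gm8989* (-7.01), *Itgax* (-2.10), *Gng4* (-1.83), *Nptx1* (-1.79), *Ccl7* (-1.62), *Itgb3* (-1.53), *Atp6v0d2* (-1.53), *Egr2* (-1.33), *Bmp2* (-1.27), *Tbc1d4* (-1.13) and *Arap2* (-1.04). *Gm8989* had 0 counts in RSM M[0], so its fitted value is no bound, and it shares near-identical sequence with *Gm8979*. *Gng4*, a G protein γ-subunit, was at 4.12 and 3.44 CPM under HC3 and at 3.02 and 8.99 CPM under RSM. *Nptx1*, a pentraxin, was at 25.9 and 7.90 CPM under HC3 and at 6.22 and 6.59 CPM under RSM. *Tbc1d4*, a regulator of glucose transporter traffic, was at 8.33 and 8.63 CPM under HC3 and at 9.60 and 21.7 CPM under RSM, and *Arap2* at 25.4 and 33.1 CPM and at 18.9 and 50.8 CPM. Each of the others lost its call without at least 1 replicate number. *Itgax* was the 1 of the 11 that kept its call under every alternative run.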

How the results depend on the processing

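Of the 594 genes called under HC3, 590 were also called with the replicate number as a block, which called 706 (296 raised, 410 lowered). Same-numbered HC3 M[0] and M[IL-4] libraries deviated from their group means with correlations of -0.0527, 0.576 and 0.21. Only 2 of 6 libraries, both of replicate 2, correlated best with their own number. HC3 M[0] replicate 3 correlated more with HC3 M[IL-4] replicate 1 (0.439). These values do not show a pairing by number for all 3 numbers, and they do not show that the libraries were independent. Replicate 2 of the 2 groups deviated together, and a link between libraries of other numbers was not tested. The count was 577 in a fit of the compared groups alone, 576 with DESeq2, 589 with RLE scaling, 617 with scaling by library size (median log2 fold change -0.06), 688 without a count filter, 586 with edgeR's own filter and 589 without mitochondrial genes. At the FDR alone it was 2201 (1081 raised, 1120 lowered), and 4649 against 997 with Veh. Leaving out replicates gave 346 to 615 under HC3 (208 to 272 raised, 138 to 343 lowered), where replicate 3, replicate 1 and HC3 M[IL-4] replicate 2 moved the lowered genes most, to 138, 173 and 193, and 733 to 928 with Veh.

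The 186 interactions became 239 with the replicate block, 288 with the block within each polarization, 970 at the FDR alone and 46 to 198 with replicates left out (46 without replicate 3, 112 without replicate 1). The 11 differences from RSM became 32 with the block, 25 with DESeq2, 49 without a count filter, 28 at the FDR alone and 2 to 12 with replicates left out. The 103 called members of the gene lists became 282 at the FDR alone and 84 to 106 with replicates left out. The share of raised genes with TTCNNNNGAA, 12.6%, was 9.07% at the FDR alone and 11.4% to 13.6% with replicates left out. Removing the fold threshold adds genes to a count by construction. Leaving out replicate 1, 2 or 3 removed equally many libraries and left 112, 146 and 46 interactions, so the counts also differed with the number left out. For the replicates left out, the block, DESeq2 and the filter the cause was not tested. Of 126 named results under HC3, 101 kept their call under every alternative, 118 under all but those that leave replicates out, and 0 reversed. Of 83 named interactions the numbers were 24, 80 and 0.

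Folds of genes at 0 to 3 counts in M[0] are limited by depth. The strand setting is not given, so reads of overlapping genes, and of near-identical ones, cannot be told apart. The labels do not tie libraries to mice, so p-values measure only the spread between these libraries.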

Other observations

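Some gene groups had few called members under HC3. Of 35 tested lysosome genes, 2 rose and 0 fell, both subunits of the membrane sector of the vacuolar proton pump. *Atp6v0a1* was at 345.6, 357.0 and 340.9 CPM in HC3 M[0] and at 942.1, 914.2 and 947.0 CPM in HC3 M[IL-4], a log2 fold change of 1.43 ± 0.06 (edgeR FDR = 8.43e-12) against 1.31 with Veh, and *Atp6v0d2* rose by 1.80. Of 25 glycolysis genes, the sugar transporter *Slc2a6* rose from 11.9, 14.5 and 15.6 CPM to 28.9, 32.9 and 34.8 CPM and the aldolase *Aldoc* fell from 11.0, 11.1 and 11.0 CPM to 4.81, 5.42 and 5.42 CPM. Of 30 ER chaperone and degradation genes, *Pdia4*, a disulfide isomerase, rose by a log2 fold change of 1.04 and *Derl3* fell by 1.85 on the log2 scale, from 24 to 6 counts. The *Pdia4* value was 0.99 with scaling by library size and 0.98 without replicate 3, both under the fold threshold, and *Derl3* lost its call with DESeq2 (FDR = 0.0812) and in a fit of the compared groups alone (FDR = 0.112) and without replicate 1, 2 or 3 (FDR = 0.102, 0.438 and 0.123).

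Of 19 tested genes of fatty acid synthesis and desaturation, 0 were called under HC3, and 2 interactions were called, both negative. *Scd2*, a stearoyl-CoA desaturase, was at 69.3, 55.6 and 61.6 CPM in HC3 M[0] and at 49.8, 37.8 and 47.6 CPM in HC3 M[IL-4], and rose with Veh from 51.9 ± 11.9 to 110.4 ± 8.67 CPM (interaction -1.55 ± 0.24, edgeR FDR = 6.72e-04, and 0.0758 without replicate 3). *Fads2*, the delta-6 desaturase, was at 18.2, 11.8 and 14.4 CPM and at 8.77, 6.03 and 8.82 CPM under HC3, and at 13.9 ± 2.15 and 17.2 ± 0.64 CPM with Veh. Its interaction of -1.22 lost the call without replicate 1 (FDR = 0.175) and without replicate 3 (FDR = 0.208). Of 27 genes of lipid uptake, storage and oxidation, *Pdk4*, which restrains pyruvate oxidation, fell by 1.09 on the log2 scale under HC3 and with Veh alike, and lost its call under HC3 without replicate 1 (FDR = 0.0616) and without replicate 3 (FDR = 0.208).

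Of 3 tested mast cell and basophil markers, *Mcpt8*, a basophil protease, went from 58 to 5 counts under HC3, and 0 other markers of this list were called. The eosinophil and alveolar macrophage lectin *Siglecf*, the 1 eosinophil marker tested, was at 3.05, 2.05 and 2.21 CPM and at 5.55, 7.75 and 5.59 CPM, and lost its call without replicate 3 (FDR = 0.144). The ribosomal RNAs of mitochondria, with 0 of 2 called, summed to 23218.7 to 33149.6 CPM in HC3 M[0] and to 24083.3 to 33266.0 CPM in HC3 M[IL-4].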
